A study of Kluyveromyces marxianus with 6 samples.

Results

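Of the 5785 mRNA transfrags of *Kluyveromyces marxianus*, 396 (6.85%) lay opposite 2 or more long antisense non-coding RNAs (lancRNAs), and these 396 mRNAs with their lancRNAs are described here. A transfrag is a contiguous stretch of the genome covered by reads on 1 strand, and the deposited annotation holds 14298 of them. An mRNA was a member if at least 2 transfrags of the lancRNA class each overlapped it by 1 bp or more on the opposite strand of the same contig. The rule uses position and RNA class alone. Levels enter through the transfrags themselves, which the authors built on the reads of all growth phases, with low ones removed. A lancRNA could thus be listed through any growth phase. The members carried 872 lancRNAs, which is 28.4% of all 3067 lancRNAs, in 882 mRNA and lancRNA pairs, since 10 of these lancRNAs lay opposite 2 members. As the class requires, each lancRNA was at least 200 bp long.

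All groups were cultures of 1 strain, *K. marxianus* var. marxianus ATCC 36907 (KM7), grown with shaking at 30 °C in a yeast nitrogen base medium with amino acids, without uracil and with 2% dextrose. After removal of rRNA, strand-specific libraries were sequenced at 3 points of exponential growth, 2 biological replicates at each. Samples came from early exponential growth at an optical density of about 3 (EE), mid exponential growth at about 7 (ME) and late exponential growth at about 10 (LE). Density, growth phase and the age of the culture move together in this design and cannot be told apart. The comparisons below ask whether the lancRNAs opposite 1 mRNA changed with each other and with that mRNA.

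Antisense RNA is transcribed from the strand opposite a gene. In budding yeast, where it has been studied most, such transcription often starts in the region depleted of nucleosomes at the 3′ side of a gene and can lower, raise or leave unaltered the output of the gene it crosses. Several separate antisense transcripts opposite 1 mRNA can have separate start sites and can thus vary separately.

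The value deposited for each transfrag and growth phase is the authors' mean of 2 libraries, a read signal scaled by DESeq size factors and not by transfrag length. It is called the level here, and changes are given as log2 of the level plus 1 in ME or LE against EE. This scale understates the change of low levels. With 1 mean per growth phase there was no test and no p-value, so a change has no replicate check, and "rose" and "fell" mean a change of at least 2-fold in the level plus 1. Levels stand in the order EE, ME and LE where no growth phase is named. Errors after a ± sign are 1 standard error of that log2 change, taken from read counting and widened by the spread of the EE libraries. In EE that spread could be measured at 8575 low levels, where the variance between both libraries was 2.37 times that of counting. The level worth 3 reads in the shallower library was 4.00 for EE, 1.09 for ME and 1.19 for LE, so EE was the least deeply sampled growth phase. Levels are averages over a culture, in which fewer cells with a transcript and less of it in every cell cannot be told apart. They also do not show whether an mRNA and its lancRNAs were present in the same cells.

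Most members had the smallest number of lancRNAs the rule allows. There were 323 members with 2 lancRNAs, 60 with 3, 11 with 4, 1 with 5 and 1 with 7. The members spread over 15 of the 81 contigs, and 163 of them had a named closest homolog in the portion of the gene annotation used here, which holds 1998 genes. A member without a name may thus still have a known homolog. Short antisense RNAs (sancRNAs) lay opposite 118 members (29.8%) as well, and opposite 23.8% of the mRNAs with a single lancRNA.

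The members were long mRNAs. Their median length was 1760 bp, against 921 bp for the 1492 mRNAs with 1 opposite lancRNA and 440 bp for the 3897 mRNAs with none. Of the mRNAs under 1000 bp 1.36% were members, of those from 1000 to 2000 bp 15.0%, of those from 2000 to 3000 bp 35.1%, and of the 86 mRNAs of 3000 bp or more 64.0%. Per kb of mRNA the members had a median of 1.26 lancRNAs, against 1.09 for mRNAs with a single one. The lancRNAs together covered a median of 49.0% of a member mRNA (quartiles 35.9% and 66.8%, range 8.87% to 97.6%), and they covered at least 90% of it in 18 members. A single lancRNA covered a median of 41.0% of its mRNA.

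Most lancRNAs of members lay wholly within the borders of the mRNA. Of the 882 pairs, 622 (70.5%) were of this kind, 149 extended past the 5′ end of the mRNA and 111 past its 3′ end. Among mRNAs with a single lancRNA, 47.5% of lancRNAs lay inside, 31.9% extended past the 5′ end, 14.5% past the 3′ end and 6.03% spanned the whole mRNA, which no lancRNA of a member did. Part of this difference follows from the choice of members, since a lancRNA that spans an mRNA leaves no room for another one and only 1 can cross each end. Neighbouring lancRNAs of 1 member were separated by a median of 207 bp (486 neighbours, quartiles 129 and 444 bp, range 40 to 3823 bp). The smallest gap, 40 bp, is also the distance under which the authors joined transfrags. In all, 52 neighbours were under 100 bp apart, and whether neighbours are separate RNAs or fragments of 1 RNA cannot be told apart from the positions. If overlaps of 5 bp or less were not counted, 4 members would leave the list, and 24 mRNAs with 1 lancRNA had another one on the opposite strand within 50 bp of their border.

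Member mRNAs were abundant and their lancRNAs were not. Per kb of transfrag, the median level of member mRNAs was 284, 459 and 645, and that of all mRNAs was 47.3, 66.2 and 47.9. The share of members among mRNAs of at least 1000 bp was 4.35% at a mean level of 10 to 100, 17.0% at 100 to 1000 and 37.0% at 1000 to 10000. Above 10000 it was 32%, or 16 of 50 mRNAs. The lancRNAs of members had a median level per kb of 18.5, 23.9 and 21.3, close to the 21.5, 23.8 and 22.4 of all lancRNAs. In EE 252 of the 872 were at or under the level of 3 reads, in ME 46 and in LE 71.

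The summed level of the lancRNAs, not scaled by length, was a median of 3.68% of that of the mRNA in EE (quartiles 1.02% and 16.3%), 4.41% in ME and 3.26% in LE. With both levels taken per kb the medians were 14.4%, 15.7% and 11.5%. The lancRNAs together exceeded their mRNA in 29 members in EE, 18 in ME and 16 in LE. Reads assigned to the wrong strand would be largest opposite abundant mRNAs. The 5th percentile of this share over the 100 highest mRNAs with a lancRNA, used as an estimate of such reads, was 0.0763%, 0.173% and 0.0838%. At most 2 members lay at or under it in any growth phase. That number is largely set in advance, since a low percentile of the same share leaves few mRNAs under it. It thus cannot show that the lancRNA levels of members exceed such reads. Single lancRNAs lay at or under this percentile in 93 pairs in EE, 118 in ME and 102 in LE. Members whose lancRNAs together were under 1% of the mRNA level numbered 97 in EE, 61 in ME and 94 in LE.

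Both strands of the members tended upward after EE. In ME 166 member mRNAs rose and 78 fell, where 33.6% of all mRNAs rose and 31% fell. In LE 196 rose and 49 fell, against 34.2% and 37.2% of all mRNAs. The median log2 change of member mRNAs was 0.48 in ME and 0.97 in LE, and that of all mRNAs was -0.13 and -0.28. Rises were about as frequent among mRNAs with 1 opposite lancRNA, so they are not particular to members. Of those mRNAs 45.6% rose and 22.5% fell in ME, and 48.3% and 21.4% in LE. Their median changes were 0.72 and 0.90. Of the lancRNAs of members, 333 (38.2%) rose and 166 (19.0%) fell in ME, against 34.3% and 25.2% of all lancRNAs. In LE 353 (40.5%) rose and 211 (24.2%) fell, against 37.1% and 28.6%. Their median log2 change was 0.43 in both growth phases, against 0.24 (ME) and 0.25 (LE) over all lancRNAs.

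These directions depend on how the growth phases are scaled against each other. Scaling by the authors' mapped reads instead of DESeq size factors adds 1.31 to every log2 change in ME and 0.77 in LE before the pseudocount. It gives 256 mRNAs that rose and 16 that fell in ME, and 559 lancRNAs that rose and 51 that fell. In LE it gives 258 and 18 mRNAs and 451 and 117 lancRNAs. Scaling to an equal summed level adds 0.26 in ME and takes 0.19 off in LE, and moved the share of rises among changed lancRNAs by under 10 percentage points. A difference between the changes of 2 lancRNAs of 1 mRNA depends on the scaling only through the pseudocount. The mRNA median in ME also depends on which members are kept. It was -0.32 over the 112 members whose mRNA and at least 2 lancRNAs had a mean level of 10 or more. A pseudocount of 5 over all members left it at 0.47. The lancRNA median in LE was 1.37 under that level limit, which keeps lancRNAs that were high in any growth phase.

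The lancRNAs opposite 1 mRNA moved together in some members and apart in others. In LE all lancRNAs rose in 63 members (15.9%) and all fell in 23, while in 82 members (20.7%) at least 1 lancRNA rose and another fell. In a further 108 members some rose and the others did neither, in 71 some fell and the others did neither, and in 49 no lancRNA changed. In ME all rose in 58 members, all fell in 19 and both directions occurred in 62. The background in LE was 37.1% of all lancRNAs that rose and 28.6% that fell. Of the lancRNAs of members 40.5% rose and 24.2% fell. Lists of lancRNAs with such shares give joint and opposite changes without any link between the lancRNAs. Whether the counts per member depart from that was not tested. Scaled by mapped reads, all rose in 104 members and both directions occurred in 54 in LE, so that the order of these counts turned. It also turned over the 112 members with mRNA and lancRNA mean levels of at least 10, at 42 and 15, with a fold limit of 4, at 22 and 17, and with a pseudocount of 5, at 33 and 31. In ME it turned under each of these and with scaling to an equal summed level, at 72 and 58. The largest difference between lancRNAs of 1 member exceeded 2 of its errors in 124 members in ME and in 136 in LE, and it did so in 54 of the 62 and in 70 of the 82 members with both directions. The counts among members with both directions are largely set in advance. Those members were chosen because 1 lancRNA rose and another fell, so their largest difference is large by choice.

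**Figure D1:**
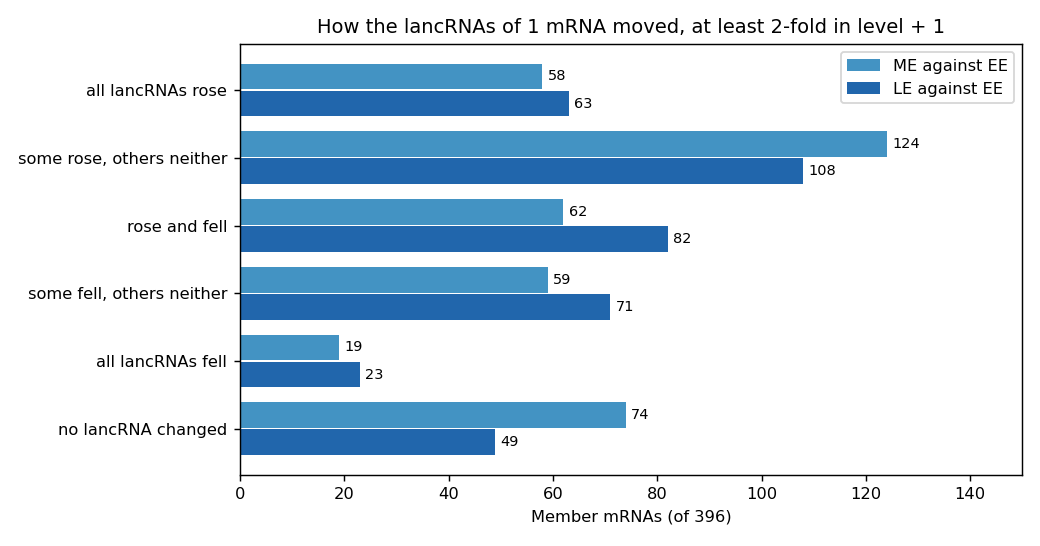
Number of member mRNAs (horizontal axis, of 396) by how their lancRNAs moved, with 1 bar for ME against EE and 1 for LE against EE and a limit of 2-fold in the level plus 1. Members whose lancRNAs moved in both directions number 62 in ME and 82 in LE, beside 58 and 63 whose lancRNAs all rose, an order that turns with scaling by mapped reads, a filter on low levels, a fold limit of 4 or a pseudocount of 5, and in ME also with scaling to an equal summed level.

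Between direct neighbours the median absolute difference of the log2 change was 1.42 in ME and 1.50 in LE over 486 neighbours. The median error of that difference was 1.24 in ME and 1.27 in LE, close to the difference itself. A difference of at least 2-fold occurred for 316 neighbours in ME and 314 in LE, and 121 and 135 were beyond 2 errors. Among the 117 neighbours that both had a mean level of 10 or more, the medians were 1.31 and 1.25 with median errors of 0.91 and 0.93, and 39 and 48 were beyond 2 errors.

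Across neighbours the changes were weakly related, with Pearson's r of 0.15 in ME and 0.17 in LE (Spearman's rho 0.14 and 0.18, n = 486). These points come from the same libraries, and members with 3 or more lancRNAs give several points. The ME and LE changes of a lancRNA share its EE level. For gaps from 100 to under 200 bp r was 0.27 in ME and 0.32 in LE (n = 184), for the 52 neighbours under 100 bp apart it was 0.24 and 0.17, for gaps from 200 to under 500 bp 0.11 and 0.05 (n = 143), and for gaps of 500 bp or more it was -0.07 and 0.01 (n = 107). Consecutive lancRNAs opposite different mRNAs and under 1000 bp apart had r of 0.08 in ME and 0.09 in LE (n = 219), with median absolute differences of 1.61 and 1.65. Whether neighbours under 1 mRNA are more alike than lancRNAs at the same distance elsewhere was not tested.

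**Figure D2:**
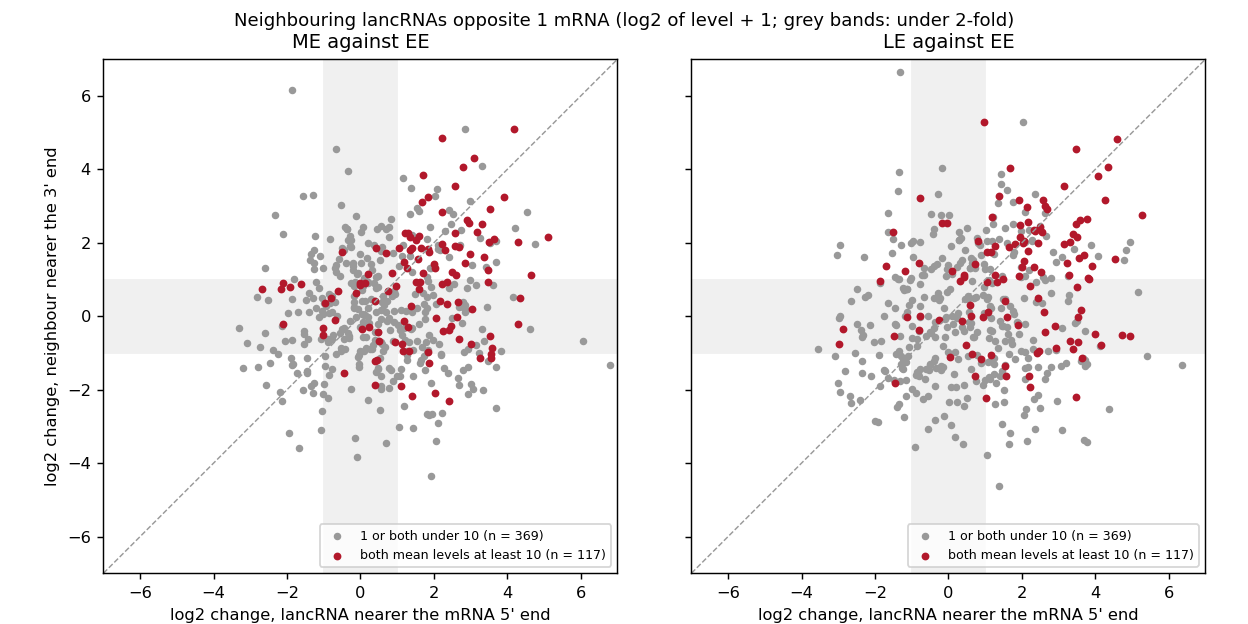
Log2 change of each pair of neighbouring lancRNAs opposite 1 mRNA, the lancRNA nearer the 5′ end of the mRNA on the horizontal axis and its neighbour on the vertical axis, in ME (left) and LE (right) against EE. Red points are the 117 neighbours that both had a mean level of 10 or more, grey points the other 369, the dashed line marks equal change, and points in all 4 corners outside the grey bands show neighbours that moved together and apart.

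The mRNA with the most lancRNAs was transfrag15170 (contig 106, 405690 to 412112, minus strand, 6423 bp), for which no homolog name was at hand. Its level was 7599, 8565 and 13209, and its 7 lancRNAs, all inside it, covered 57.2% of its length. At a distance of 11.1% of the mRNA from the 5′ end, the first lancRNA had levels of 4.16, 34.3 and 48.6, a log2 change of 3.26 ± 0.91 in LE. The fifth, at 75.6%, went from 8.16 over 32.4 to 33.7, a change of 1.92 ± 0.73. The seventh, at 94.2%, was at 4.79, 1.08 and 2.85, a change of -0.59 ± 1.02, so 6 lancRNAs were higher in LE than in EE and the one nearest the 3′ end was not. The mRNA with 5 lancRNAs, transfrag19370 (contig 110, 857234 to 860506, minus strand), had a level of 2623, 2836 and 3177. Its lancRNAs were between 0.71 and 13.0, with 3 of the 5 at or under 3 reads in EE. The largest log2 changes in LE, 1.91 and 1.28, passed 2-fold, but no change in LE exceeded 2 errors.

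**Figure D3:**
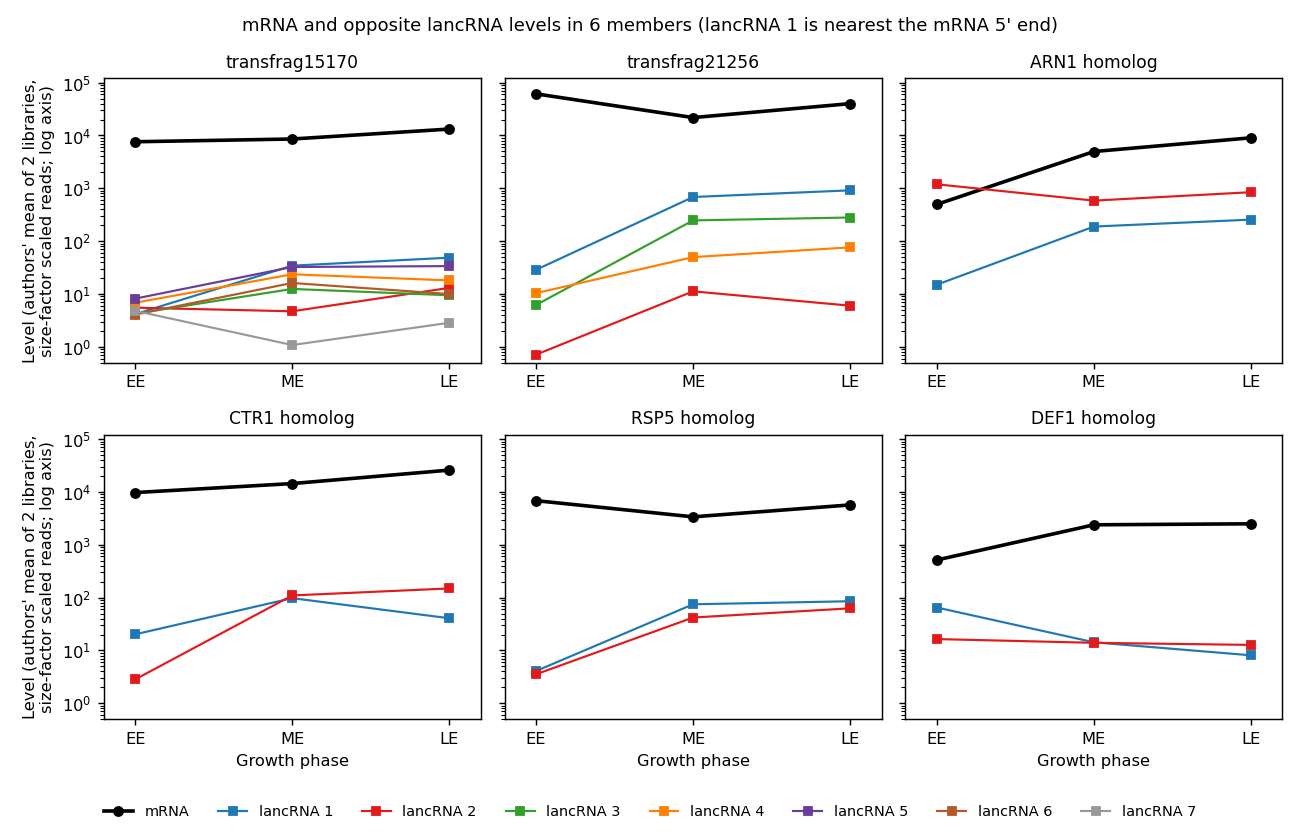
Levels (log axis, the authors' means of 2 libraries) of the mRNA (black) and its lancRNAs (coloured, numbered from the mRNA's 5′ end) in EE, ME and LE for 6 members. The lancRNAs of the RSP5 homolog rise side by side, those of the DEF1 homolog are lower after EE, and those of the ARN1 and CTR1 homologs cross or part.

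The 5 largest differences in LE, among members with a mean level of at least 10 for the mRNA and at least 2 lancRNAs, were all between a lancRNA near the 5′ side that rose and one farther 3′ that did not. This limit keeps lancRNAs that were high in any growth phase, also those low in EE. Without it the largest difference in LE ran the other way. At transfrag16106 the lancRNA on the 5′ side had a log2 change of -1.33 and the one on the 3′ side 6.65. Their difference, 5′ minus 3′, was -7.98 ± 1.47. The next largest without the limit, 7.71 ± 1.31 at transfrag23789, was between 6.37 on the 5′ side and -1.34 on the 3′ side. The 5 members found with the limit are described next. At transfrag13997 (contig 106, 785585 to 787830, plus strand) the lancRNA at 15.0% of the mRNA was at 10.4, 70.2 and 137. The one at 90.8% was at 27.5, 1.35 and 3.26. The difference in log2 change was 6.34 ± 0.95, while the mRNA was at 1336, 1012 and 2152.

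At transfrag25296 (contig 112, 1141565 to 1143811, minus strand) the mRNA fell from 19531 to 2839 and 4507. Its 5′ lancRNA of 1086 bp rose from 29.1 to 165 and 333, and its 3′ lancRNA went from 20.0 to 16.5 and 3.54. These lancRNAs differed by 5.68 ± 0.83 in LE. At transfrag31720 (contig 119), which has 4 lancRNAs, those at 4.28% and 14.0% of the mRNA rose, from 3.54 to 91.3 and from 4.95 to 99.3. The one across its 3′ end fell from 42.2 to 20.3. The difference between the first and the last was 5.37 ± 1.04.

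At transfrag28556 (contig 114) the 5′ lancRNA rose from 11.7 to 151 and 333. The 3′ lancRNA was at 266, 146 and 187 and thus highest in EE, and the difference was 5.22 ± 0.63. The homolog of SKT5, an activator of chitin synthase in budding yeast, had an mRNA that fell from 4879 to 712 and 1100. Its 5′ lancRNA was listed at 0 in EE and at 18.7 and 30.1 afterwards, at least 7.51-fold higher in LE than the level of 3 reads in 1 library. Its other lancRNA was at 14.8, 12.8 and 9.97. The difference, 5.49 ± 2.68, rests on the level of 0 and is only about as large as 2 of its errors.

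Among the named members with the same minimum of the mean level, the next largest differences were at homologs of a siderophore transporter and a copper transporter. ARN1 takes up iron bound to siderophores in budding yeast. The mRNA of its homolog (contig 103, 632517 to 635995, plus strand) rose from 496 to 4966 and 9028. Its lancRNA on the 5′ side, 1444 bp long, rose from 15.0 to 189 and 255, and the one on the 3′ side, 1516 bp long, went from 1190 to 584 and 843. In EE the latter exceeded the mRNA of 3479 bp in level, and the changes of both lancRNAs differed by 4.50 ± 0.56 in LE.

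CTR1 is a copper transporter of the plasma membrane. The mRNA of its homolog (contig 98, 102517 to 103928, minus strand) was at 9730, 14404 and 25892. Here the 3′ lancRNA rose from 2.83 to 110 and 149, while the 5′ lancRNA was at 20.2, 97.7 and 40.7, a difference of 4.32 ± 1.12. The named member closest to PRO1 of *Neurospora crassa* had mRNA levels of 159, 766 and 1343. A lancRNA across its 3′ end fell from 361 in EE to 131 and 109, and the one nearest its 5′ end was at 1.41, 20.5 and 10.9.

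The homolog of ACON2, named for a mitochondrial aconitase of budding yeast, shows how an end overlap enters the list. Its first lancRNA, 767 bp long, overlapped the 5′ end of the mRNA by 14 bp and fell from 47.1 to 10.2 and 16.01. The second, inside the mRNA at 17.5%, was at 12.02, 23.6 and 63.0. The mRNA itself was at 1738, 775 and 1135. Without overlaps under 50 bp it would not be a member, and 371 of the 396 members would remain.

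In other members the lancRNAs rose together while the mRNA did not rise. RSP5 encodes a ubiquitin ligase in budding yeast, and the mRNA of its homolog (contig 98, 310494 to 313620, plus strand) was at 6838, 3378 and 5679. Its lancRNAs rose from 4.08 to 74.8 and 85.4 and from 3.54 to 42.0 and 62.7. Their log2 changes in LE, 4.09 ± 0.90 and 3.81 ± 0.94, differed by 0.28 ± 1.31. At transfrag18385 (contig 110) both lancRNAs started at 3.45 and reached 84.2 and 39.0 in LE, and the mRNA was at 4258, 2455 and 4816. At transfrag28862 (contig 114) the outer lancRNAs rose from 0 to 10.0 and from 0.71 to 27.1, and the middle one, with a mean level under 10, was at 4.16, 3.08 and 3.54. The changes of the outer lancRNAs differed by 0.58 ± 3.03. These EE levels, those at transfrag18385 and the lower one at RSP5 were under the EE level of 3 reads. The sizes of these rises are thus uncertain.

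The homologs of MGA2, a membrane-bound transcription activator of fatty acid desaturation, and of SBE2, which acts in bud growth, had lancRNAs that rose too. At MGA2 (contig 105) the lancRNAs rose from 2.67 to 21.9 and from 10.5 to 90.9 in LE, while the mRNA was at 9472, 3855 and 6293. At SBE2 (contig 103) they rose from 13.0 to 156 and from 13.2 to 79.6, while the mRNA was at 11489, 4457 and 7419. Scaled by mapped reads, the mRNA changes in LE were 0.50 for RSP5, 0.18 for MGA2 and 0.14 for SBE2, not -0.27, -0.59 and -0.63. The homolog of NDH1, the external NADH dehydrogenase of the mitochondrion, differed in that its mRNA rose too, from 143 to 594 and 646. Its lancRNAs rose from 5.33 to 54.7 and from 0.71 to 18.9. The lower EE level at MGA2 and at NDH1 was likewise under that of 3 reads.

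Joint falls were rarer, at 23 members in LE against 63 with joint rises when no level limit was set. The limit used next is a mean over EE, ME and LE. It keeps lancRNAs through the growth phases in which they were high, and those that fell from a low level drop out. Among members with a mean level of at least 10 for the mRNA and at least 2 lancRNAs, all such lancRNAs fell at least 2-fold in LE only at transfrag16931 (contig 110). They fell from 22.7 to 7.69 and from 28.6 to 7.40 in LE, and the mRNA was at 1990, 772 and 1006. At the homolog of NAP1, a histone chaperone, the lancRNA at 81.0% of the mRNA fell from 148 in EE to 53.8 and 60.7, and the one at 21.8% was at 26, 36.8 and 14.8. The lancRNA between them, with a mean level under 10, was at 4.71, 11.2 and 9.47.

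At transfrag23677 (contig 112) a lancRNA of 1120 bp fell from 227 to 34.3 and 28.0, and the mRNA of 1420 bp fell from 100.1 to 41.2 and 35.1. Its other lancRNA, across the 3′ end and at 9.66, 16.9 and 5.31, did not fall 2-fold, and the difference in LE was 2.22 ± 0.86. At the homolog of WSC3, a sensor of cell wall stress, the mRNA rose from 68.9 to 349 and 242. Its 5′ lancRNA fell from 47.6 to 22.8 and 16.5, and its other lancRNA was at 14.4, 9.87 and 9.59. The homolog of DEF1, a factor for the degradation of RNA polymerase II, had an mRNA that rose from 516 to 2388 and 2495. Its 5′ lancRNA fell from 65.0 to 14.3 and 8.09, and its other lancRNA was at 16.4, 14.0 and 12.7. At the homolog of SSP1, a gene of sporulation, 1 lancRNA fell from 30.2 to 13.4 in LE and the other was at 16.4 in EE and 17.0 in LE.

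In each of the 4 most abundant member mRNAs, by mean level, the longest lancRNA rose after EE. The mRNA of transfrag21256 (contig 112, 142250 to 146304, plus strand) was at 61273, 21793 and 40004. Its first lancRNA, 1834 bp long, rose from 28.7 to 684 and 914, and its lancRNA at 78.4% of the mRNA rose from 6.20 to 247 and 280. The lancRNAs together went from 0.0750% of the mRNA level in EE to 4.55% in ME, and the EE value is under the wrong-strand estimate of 0.0763%. At transfrag16046 (contig 106) a lancRNA of 1978 bp rose from 44.5 to 926 and 804, while the other 2 stayed between 5.81 and 15.3. Its mRNA was at 54538, 17653 and 31608.

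The homolog of TBP7, a chromatin-bound ATPase of budding yeast also called YTA7, had an mRNA that fell from 51698 in EE to 12899 and 25177 (contig 103, 684979 to 690225, minus strand). A lancRNA of 2766 bp rose from 106 to 1069 and 1617. At transfrag17502 (contig 110) the mRNA fell from 52688 to 7155 and 9307, and the lancRNA across its 3′ end rose from 150.3 to 438 and 625. The other lancRNA of transfrag17502 went the opposite way, with log2 changes of -1.37 in ME and -0.96 in LE. In these 4 members the mRNA was highest and the longest lancRNA lowest in EE, by the levels as scaled by the authors. With scaling by mapped reads the mRNA changes in LE were 0.15 for transfrag21256 and -0.02 for transfrag16046, instead of -0.62 and -0.79. For the TBP7 homolog and transfrag17502 they were -0.27 and -1.73, instead of -1.04 and -2.50. The mRNA of transfrag21256 was thus highest in LE under that scaling.

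In each of the 4 members with the highest lancRNA share in LE, at least 1 lancRNA crossed an end of the mRNA. EAF5 is a subunit of the NuA4 histone acetyltransferase, and the mRNA of its homolog (contig 103, 540086 to 541131, plus strand) rose from 60.0 to 200.4 and 301. A lancRNA of 975 bp, of which 280 bp overlapped its 3′ end, fell from 3026 to 1785 and 1176. The lancRNA inside it rose from 14.7 to 33.7 and 44.9. JEN1 is a transporter of lactate and pyruvate, and the mRNA of its homolog (contig 105, 1020025 to 1021091, plus strand) rose from 33.4 to 97.0 and 147. Its lancRNA across the 5′ end was at 545, 176 and 314, and its lancRNA across the 3′ end rose from 60.3 to 112 and 168. At transfrag29275 (contig 114) the lancRNAs together were 122%, 311% and 417% of the mRNA level, and at transfrag21013 (contig 111) 167%, 496% and 343%. Reads of such a lancRNA outside the mRNA count toward its level as well.

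The place along the mRNA went with the direction of change, a pattern examined after the values had been seen. For the lancRNA nearest the 5′ end of each member the median log2 change was 0.69 (ME) and 0.78 (LE), and for the one nearest the 3′ end 0.12 and -0.14. The median difference, 3′-most minus 5′-most, was -0.41 in ME (95% interval of the median from order statistics -0.81 to -0.17) and -0.65 in LE (-0.90 to -0.28). In LE the 5′-most lancRNA had the higher change in 242 members and the 3′-most in 153. With a mean level of at least 10 for both (94 members) the median difference was -1.20 in ME and -1.06 in LE, and with both inside the mRNA (193 members) it was -0.53 and -0.70. The level limit keeps lancRNAs that were high in any growth phase and thus bears on their changes. In level per kb the 3′-most lancRNA was the higher one in 232 of 396 members in EE, and the 5′-most was the higher one in 213 in ME and 220 in LE.

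By place, the 111 lancRNAs across a 3′ end had a median log2 change of -0.36 in LE, with 27 that rose and 40 that fell. The 149 across a 5′ end had a median of 0.66, with 65 that rose and 28 that fell, and the 622 inside an mRNA had a median of 0.51, with 265 and 147. With a mean lancRNA level of at least 10, the balance across a 3′ end turned, with 21 that rose and 13 that fell among 60 and a median of 0.0072. Across a 5′ end (72) and inside (278) the medians were then 1.62 and 1.55, under a limit that keeps lancRNAs high in any growth phase. Without this limit the median EE level per kb was 28.8 across a 3′ end, 19.1 across a 5′ end and 17.1 inside. With it these medians were 48.1, 22.4 and 19.7. Single lancRNAs had the same order of medians in LE, with medians of -0.47 across a 3′ end, 0.51 across a 5′ end and 0.15 inside.

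**Figure D4:**
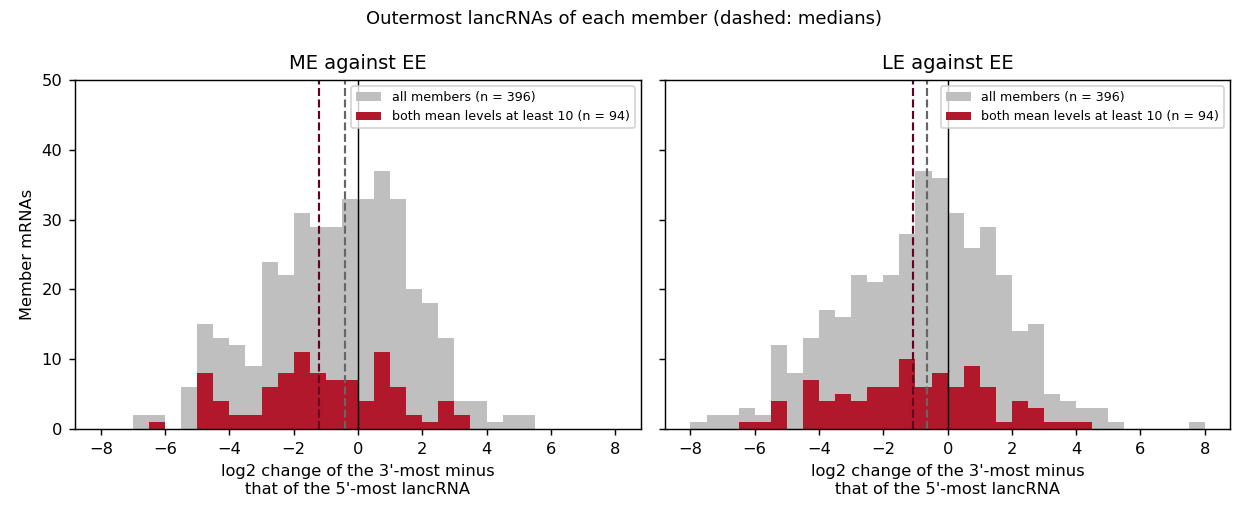
Distribution over members of the log2 change of the 3′-most lancRNA minus that of the 5′-most (horizontal axis, bins of 0.5), in ME (left) and LE (right) against EE. Grey bars count all 396 members, red bars the 94 with a mean level of at least 10 for both lancRNAs, and the dashed medians lie below 0 in both growth phases.

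The lancRNA changes bore little relation to the change of the mRNA they lay opposite. Pearson's r between the mRNA change and the mean change of its lancRNAs was -0.09 in ME and -0.01 in LE (Spearman's rho -0.09 and -0.03, n = 396). Here too the points come from the same libraries, and the ME and LE changes of a transfrag share its EE level. For mRNAs with a single lancRNA r was -0.02 and 0.04 (n = 1492). In LE the lancRNAs had a median log2 change of 0.32 opposite the 196 mRNAs that rose, 0.77 opposite the 151 that did neither and -0.05 opposite the 49 that fell. In ME these medians were 0.25, 0.56 and 0.63 for 166, 152 and 78 mRNAs.

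Patterns of the lancRNAs held mRNAs of every direction. Of the 63 members whose lancRNAs all rose in LE, the mRNA rose in 26 and fell in 10, and of the 23 whose lancRNAs all fell it rose in 13 and fell in 3. Of the 82 with both directions it rose in 36 and fell in 9. Over all members the mRNA rose in 49.5% and fell in 12.4% in LE.

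**Figure D5:**
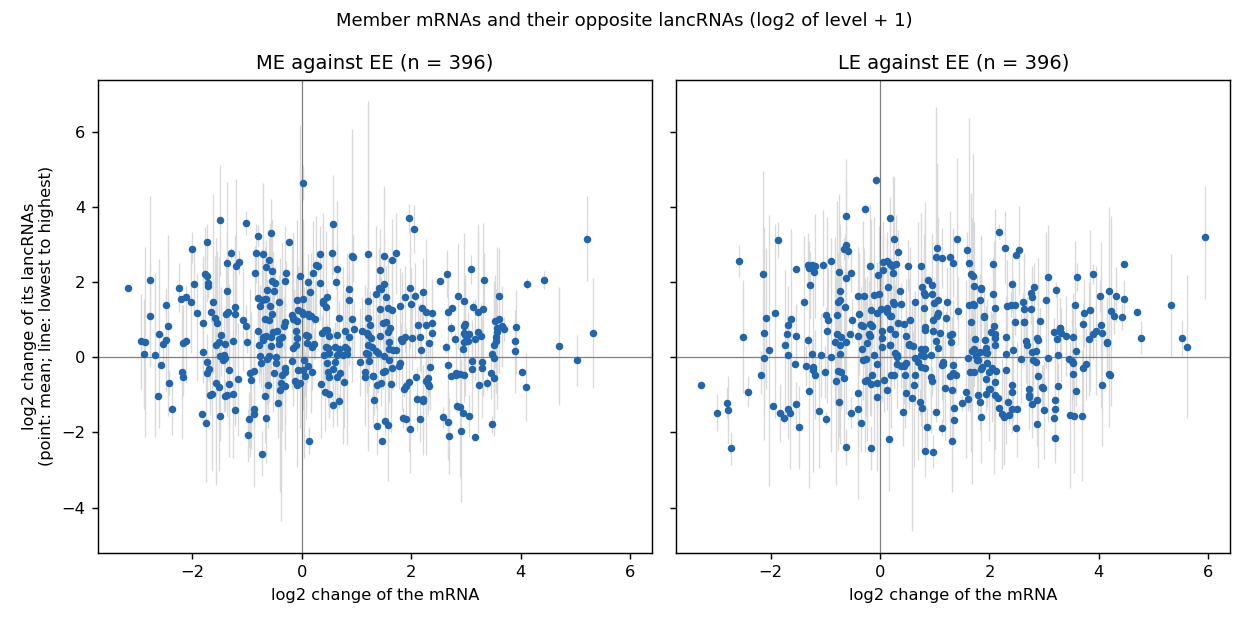
Log2 change of each member mRNA (horizontal axis) and of its lancRNAs (vertical axis), in ME (left) and LE (right) against EE. Each point is the mean of the lancRNAs of 1 of 396 members and each grey line runs from the lowest to the highest of them, with no slope apparent in either panel (r of -0.09 and -0.01).

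The same lancRNA, by level, was the highest in all 3 growth phases in 225 members (56.8%), counting ties. Of the 323 members with 2 lancRNAs this held for 192, and of the 73 with 3 or more for 33. With levels per kb it held for 167 members. Where the second highest was above 3 reads, the highest lancRNA was a median of 1.87 times the next in EE (232 members), 2.71 times in ME (362) and 3.09 times in LE (345).

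Genes of carbon metabolism were among the members. Of 17 mRNAs with a named homolog in glycolysis and fermentation, 5 were members, 7 had 1 lancRNA and 5 had none. Of the 5 member mRNAs, 4 rose in LE and none fell, and of their 14 lancRNAs 4 rose and 3 fell. Of all mRNAs 6.85% were members, from 1.36% of those under 1000 bp to 64.0% of those of 3000 bp or more. In LE 34.2% of all mRNAs and 49.5% of member mRNAs rose, and 37.1% of all lancRNAs rose and 28.6% fell. The counts of this and the following lists stand against these shares. Whether membership in a list departs from the share for its mRNA lengths was not tested. The homologs of both subunits of phosphofructokinase, which commits sugar to glycolysis, were members. K6PF1 (contig 103, 1035584 to 1039484, minus strand) was at 7442, 15554 and 18786, and its 3 lancRNAs had log2 changes of -0.21 ± 0.70, -1.47 ± 0.95 and 1.07 ± 0.85 in LE. K6PF2 (contig 105, 214451 to 218085, plus strand) was at 6513, 11323 and 13478. Of its 4 lancRNAs, the one of 1490 bp inside the mRNA rose from 13.7 to 48.0 and 84.1, and the one across the 5′ end was at 223, 158 and 217.

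Pyruvate kinase (KPYK), the last enzyme of glycolysis, had an mRNA that rose from 645 to 6240 and 5882. Its 3 lancRNAs were between 1.33 and 15.3, with log2 changes of 0.48, -0.21 and 1.44 in ME and 1.05, 0.46 and 0.47 in LE. Pyruvate carboxylase (PYC2), which makes oxaloacetate, had an mRNA that rose from 607 to 3886 and 5955. Its lancRNAs were between 0.71 and 12.4, with log2 changes of 1.04 and 1.37 in ME and 0.95 and 0.59 in LE. The homolog of glucokinase (HXKG) was the member of this list whose mRNA did not rise, at 1532, 1187 and 1054. Both of its lancRNAs fell in LE, from 13.6 to 2.95 and from 12.8 to 5.58. With scaling by mapped reads the change of this mRNA in LE was 0.23 and not -0.54, and the other 4 kept their sign under both scalings.

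Of 21 mRNAs in the tricarboxylic acid cycle and respiration, 4 were members. In LE 2 of their mRNAs rose and none fell, and of 8 lancRNAs 3 rose and 2 fell. Besides the ACON2 and NDH1 homologs, these were the β subunit of succinyl-CoA ligase (SUCB) and dihydrolipoamide dehydrogenase (DLDH), a subunit shared by several dehydrogenase complexes. SUCB was at 1653, 1785 and 2570 and its lancRNAs stayed between 2.18 and 16.2. DLDH rose from 284 to 2694 and 3426, and its lancRNAs went from 4.16 to 2.66 and from 6.12 to 1.87 in LE.

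Of 46 mRNAs of nutrient transport 4 were members (CTR1, DAL5, PHO87 and JEN1), and of their 9 lancRNAs 4 rose and none fell in LE. Of 19 mRNAs of ATP-binding cassette and drug transport 4 were members (YBT1, ATM1, CDR4 and SNQ2). In LE 3 of these mRNAs rose, and of their 8 lancRNAs 5 rose and 1 fell. These counts are too small to be read against the background shares as a result about any list. None of 23 mRNAs of cytosolic ribosomal proteins was a member, and 8 had a single lancRNA. Of all mRNAs 6.85% were members, and of those under 1000 bp 1.36%.

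Of 55 mRNAs of ribosome biogenesis 3 were members, and of their 7 lancRNAs 2 rose and 2 fell in LE. The homolog of LTV1, which acts in the assembly of the small ribosomal subunit, was singled out after its values were seen. Its lancRNA at 86.0% of the mRNA fell from 50.8 to 1.54 and 1.09, a log2 change of -4.63 ± 0.72, the lowest among lancRNAs of members. Its neighbour at 42.1% was at 2.83, 13.6 and 9.05, and the mRNA at 521, 401 and 779. FBRL, the methyltransferase fibrillarin, had an mRNA that fell from 2371 to 398 and 740.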

How the data were processed

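RNA depleted of rRNA from 6 *K. marxianus* libraries, 2 each from EE, ME and LE as given by the sample titles, was sequenced with strand information. The authors mapped the reads with CLC genomics workbench, placed non-specific matches at random, built transfrags on the reads of all growth phases, joined close ones, divided them at genes and removed low ones. Classes came from length, CPAT coding potential and place relative to AUGUSTUS genes. The deposited levels are a read signal, divided by DESeq size factors and averaged over 2 libraries by the authors. The submitters' notes also name CASAVA 1.4. Reads were recoverable only for low levels, as sums of 2 steps per growth phase (100% of 10022 EE levels up to 20, 99.9% of 6411 ME and 100% of 7123 LE levels up to 5), so no count test was possible. Summed over both libraries, 1 unit of level stood for 1.08 reads (EE), 3.22 (ME) and 2.96 (LE).

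Positions and classes came from the deposited annotation, and 1-based coordinates refer to the authors' contigs. Homolog names and mapped reads came from the study's supplementary tables. Changes used a pseudocount of 1, and a lancRNA was placed by its centre along the mRNA. Errors used counting variance times the spread found in EE. In simulated data this spread came out somewhat low, and it was not measured at higher levels or in ME and LE. Overlaps, steps and changes were tested on simulated data. Intervals of medians are at 95%. They cover the variation among members and not that between cultures.

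The members, gene lists and comparisons were chosen with earlier results of these data known. Named members were those with the most lancRNAs, those at mean levels of 10 or more whose lancRNAs differed most, rose most together or fell most together in LE (over all members and over those with a named homolog), those in the lists of carbon metabolism, and those with the highest mRNA level or lancRNA share. Members of the other lists were named as list members. Alternatives were other overlaps, joined neighbours, a minimum level, other pseudocounts, scalings and fold limits, Spearman's rho, levels per kb and subtraction of wrong-strand reads. Sequences are not reported here, and 1 member and 2 lancRNAs of members overlapped RNA genes. Calculations ran in Python 3.11.15 with SciPy 1.17.1, pandas 2.3.3, NumPy 2.4.6 and Matplotlib 3.10.9.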

Additional observations from a re-analysis of the deposited data

How the results depend on the processing

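Of 199 values recomputed under an alternative, 131 stayed close to the main one (counts within 1.5 times, medians within the 95% interval of the main median, coefficients within 0.1) and 1 changed sign. The correlations stayed close under each alternative run, and so did the number of members and the share covered, apart from the filter on low lancRNAs, which left 113 members, of which 61 had the same highest lancRNA in every growth phase.

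With a mean level of at least 10 for mRNA and lancRNAs, 112 members and 238 lancRNAs remained, so counts were lower by construction. The median change of the mRNAs was then -0.32 in ME, the sign change, and 0.24 in LE, with 27 higher and 38 lower in ME and 37 and 18 in LE. That of the lancRNAs was 1.30 in ME and 1.37 in LE, with 133 higher and 25 lower in ME and 145 and 26 in LE. All lancRNAs rose in 38 members in ME and fell in 0 in ME and 1 in LE, and both directions occurred in 11 and 15. The median difference between neighbours was 1.27 in LE. This filter keeps lancRNAs that are high in any growth phase.

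Scaled by mapped reads, the mRNA medians were 1.79 in ME and 1.73 in LE, with 256 higher and 16 lower in ME and 18 lower in LE. The lancRNA medians were 1.64 and 1.13, with 559 higher and 51 lower in ME and 117 lower in LE. All lancRNAs rose in 150 members in ME and 104 in LE, all fell in 2 and 8, and both directions occurred in 28 and 54. Scaled to equal summed level, the lancRNA median in ME was 0.66 and all fell in 12 members in ME.

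With a pseudocount of 5, the median difference between neighbours was 0.97 in ME and 0.98 in LE, the lancRNA median in ME was 0.28, and 86 and 102 lancRNAs were lower. All lancRNAs fell in 5 and 6 members and both directions occurred in 27 and 31, while all rose in 33 in LE. With a pseudocount of 0.5, the difference between neighbours was 1.55 in ME.

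With a fold limit of 4, 96 mRNAs were higher and 25 lower in ME and 123 and 14 in LE, and 177 lancRNAs were higher and 53 lower in ME and 194 and 71 in LE. All lancRNAs rose in 20 members in ME and 22 in LE, all fell in 2 in each, and both directions occurred in 11 and 17. Levels per kb gave a lancRNA share of 14.4% (EE), 15.7% (ME) and 11.5% (LE). The difference between the 3′-most and the 5′-most lancRNA and its alternatives were added after seeing the data. It was -1.20 in ME and -1.06 in LE with a mean level of at least 10 for both, and it kept its sign under each of the others. The cause of these shifts was not tested.

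No paired analysis was possible because 1 mean level per growth phase was deposited and its columns carry no replicate number. Leaving out a replicate had no value for the same reason. Depth limits the lancRNAs most in EE, where 252 of 872 were at or under 3 reads. At this depth the median error of a difference between neighbours was close to the difference itself, and errors do not cover variation between cultures at higher levels.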
